A study of Mus musculus with 6 samples.

Results

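The genes described here are 10 feedback genes of the ERK pathway, out of 27179 genes in the deposited comparison. They are 3 dual-specificity phosphatases (Dusp4, Dusp5 and Dusp6), 3 Sprouty genes (Spry1, Spry2 and Spry4), 2 SPRED genes (Spred1 and Spred2) and 2 ETS transcription factors of the PEA3 group (Etv4 and Etv5). They were selected by their known role, after transcripts that ERK activity raises had been seen at lower levels in this same comparison. The choice was thus made from measured values of the contrast described below, and the values of the members are a description with no test.

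B16F10 cells, an established mouse melanoma line, are labelled as skin and as wild type. The cells were grown with 0.01% ozonated olive oil (OZO, 3 samples) or with 0.01% olive oil (OLO, 3 samples) for 6 h, and their RNA was sequenced. The labels number the samples of each group and do not say whether they came from separate cultures, although the study's legends speak of independent experiments, so the standard errors measure the spread between these samples. Single-library values were not analysed here, and each level below is a group level rebuilt from the average expression and the fold change of limma-voom. The pigment cell genes Mitf, Sox10, Tyr, Tyrp1, Dct, Pmel and Mlana averaged 108.5 to 7052 CPM, read counts scaled to a common library size. Genes of blood cells, keratinocytes, fibroblasts and endothelium averaged at most 5.47 CPM, with no reads for Krt5 and with Ptprc, Krt14 and Cdh5 at or under 3 reads in both groups. Of the 4 others, Cd68 was at 3.95 CPM in OLO-treated and 7.58 CPM in OZO-treated cells (log2 fold change 0.94, interval 0.14 to 1.74). Pecam1 was at 0.328 and 4.49 CPM with a wide interval (3.78, -2.34 to 9.89), Pdgfra at 4.41 and 2.44 CPM (-0.86, -2.09 to 0.38) and Col1a1 at 1.87 and 1.54 CPM (-0.28, -0.80 to 0.23). The part of these genes in the values below was not tested.

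ERK is the last kinase of the RAS, RAF and MEK cascade, which growth factor receptors switch on and which many melanomas keep active. Active ERK raises the transcription of genes whose products dampen the same cascade. Dual-specificity phosphatases remove phosphate from MAP kinases, Sprouty proteins act between receptor and RAF, and SPRED proteins bring the RAS inhibitor neurofibromin to the membrane. ETV4 and ETV5 carry the signal on to target genes. Transcripts of these genes are widely used as a readout of ERK output.

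One route to several such genes runs through Capicua, a repressor that binds octamers such as TGAATGAA and that ERK signalling relieves. RefSeq promoter windows, 250 bases before to 50 bases after a start site on GRCm38.p6, were matched for 7 of the 10 members (Dusp5, Dusp6, Spry1, Spry2, Spred1, Spred2 and Etv5, with 2 windows for Etv5). The letters searched on both strands were TGAATGAA, TGAATGGA, TCAATGAA and TCAATGGA. They were found in 2 of the 8 member windows, those of Dusp6 and Spry2, against 3.84% of all 32851 windows. The bases before the start site are shown for these 2 genes, since they hold the matches, with the octamer in capitals. The Dusp6 stretch lies at chr10:99262981-99263230 on the plus strand and the Spry2 stretch at chr14:105896820-105897069 on the minus strand, and both are written 5′ to 3′ along the gene.
Dusp6: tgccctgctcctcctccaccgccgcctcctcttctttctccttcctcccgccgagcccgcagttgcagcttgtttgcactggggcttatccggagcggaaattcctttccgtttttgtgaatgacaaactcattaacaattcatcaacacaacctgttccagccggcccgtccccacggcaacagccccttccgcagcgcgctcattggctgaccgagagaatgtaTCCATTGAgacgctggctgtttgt
Spry2: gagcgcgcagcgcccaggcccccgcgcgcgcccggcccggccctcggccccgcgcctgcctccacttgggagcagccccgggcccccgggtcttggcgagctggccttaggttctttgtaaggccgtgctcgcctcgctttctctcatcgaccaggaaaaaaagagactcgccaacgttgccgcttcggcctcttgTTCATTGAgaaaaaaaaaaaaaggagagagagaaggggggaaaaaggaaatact
The Dusp6 octamer starts 24 bases before the start site, and a second copy, TCCATTGA, begins 1 base after the first base of the transcript. Only 0.183% of all windows held at least 2 matches. The Spry2 octamer starts 54 bases before the start site. The ETS letters CCGGAA were found in 1 member window, that of Spry2, and in 14.9% of all windows. In Spry2 they begin 33 bases after the first base of the transcript. The AP-1 letters TGANTCA were in 0 member windows and 7.81% of all windows, and the CRE letters TGACGTCA in 0 and 1.79%. Such matches describe the letters of these windows and not whether a factor was bound.

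In OZO-treated cells 9 of the 10 feedback genes had a negative log2 fold change against OLO-treated cells, as did 54.5% of genes of at least 1 CPM and 50.5% of genes above a floor of 3 reads. The intervals of 3 of the 9 (Dusp4, Spry4 and Etv4) held 0. Their median log2 fold change was -1.42, or 37.5% of the OLO level, beside a median of -0.04 over the 11878 genes of at least 1 CPM. The 9 genes came from all 4 families, with the phosphatase Dusp6 at the lowest share of its OLO level and the ETS factor Etv4 at the highest. The tenth gene, Dusp5, was hardly read in either group. At an unadjusted limma-voom p under 0.05, 6 of the 10 members were lower (Dusp6, Spry1, Spry2, Spred1, Spred2 and Etv5), as were 7.08% of all genes and 13.8% of genes of at least 1 CPM. Dusp5 alone was counted as higher, on fewer than 3 reads, against 6.25% of all genes and 10.1% of genes of at least 1 CPM. With a limit of 2-fold added, 3 members remained (Dusp6, Spry2 and Etv5), against 3.7% of genes of at least 1 CPM. At an adjusted limma-voom p under 0.05, 0 members and 0% of all genes passed, while 1925 genes were lower and 1699 higher at the unadjusted limit. The smallest adjusted limma-voom p among the members was 0.167, that of Dusp6, and the smallest in the whole table was 0.11. The members were chosen from this contrast, so nothing is read from these counts.

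**Figure D1:**
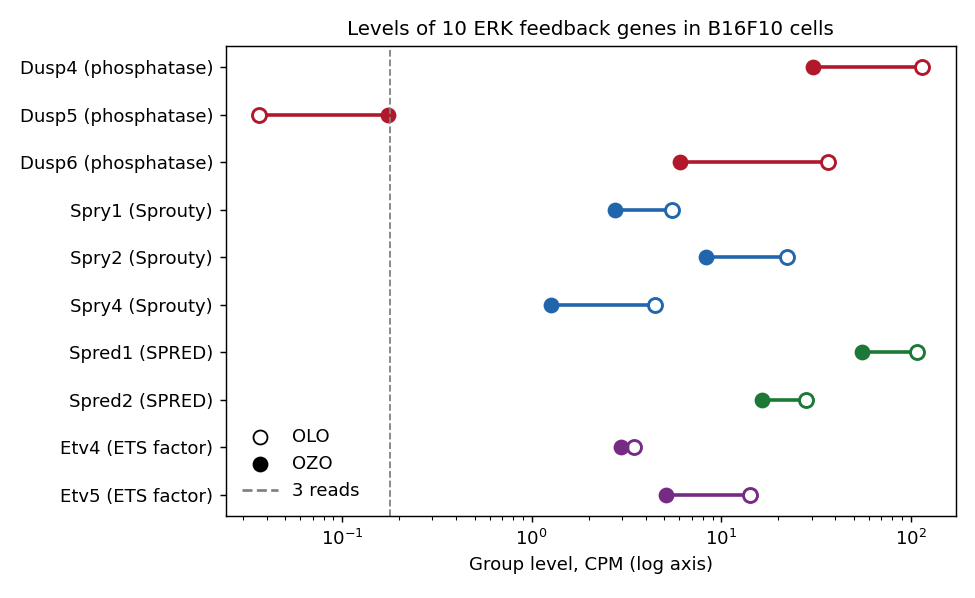
Group level of each of the 10 feedback genes in CPM on a log axis, in OLO-treated (open circles) and OZO-treated cells (filled circles), coloured by family, with the level of 3 reads as a dashed line. The OZO circle lies to the left of the OLO circle for 9 genes, most widely for Dusp6, while both Dusp5 circles lie at or under 3 reads.

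Among the phosphatases, Dusp6, which acts on ERK in the cytoplasm, was at 36.5 CPM in OLO-treated and 6.05 CPM in OZO-treated cells. It thus kept 16.6% of its OLO level, a log2 fold change of -2.59 ± 0.39 (SE, 3 samples per group) with a 95% interval from -3.60 to -1.58. Only 7 of the 11878 genes of at least 1 CPM, Dusp6 among them, had a log2 fold change this low or lower. Dusp6 (ENSMUSG00000019960) lies at chr10:99263231-99267489 on GRCm38 and has 3 exons in its longest transcript. The levels of Dusp6 rest on about 716 reads per OLO library and 118 per OZO library.

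Dusp4, a nuclear phosphatase that ERK activity induces, had the highest OLO level of the members, 115 CPM, and was at 30.6 CPM in OZO-treated cells. Its log2 fold change of -1.91 was larger than those of most members, but its SE was 0.95 and its interval ran from -4.37 to 0.55. That SE was at the 99.7th percentile of the 1000 genes nearest to it in expression, so the libraries of one or both groups differed more in Dusp4 than in nearly all genes read at a like depth. Dusp4 (chr8:34807297-34819894) is thus a large difference that did not exceed the spread between these samples.

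Dusp5, a nuclear phosphatase directed at ERK, was at 0.0364 CPM in OLO-treated and 0.174 CPM in OZO-treated cells, or 0.216 and 2.93 reads per library. Both levels are at or under a floor of 3 reads per library, so no fold is given and Dusp5 is left out of the median. The start of Dusp5 (chr19:53529109-53542431) also overlaps an antisense gene, AC137853.2, and whether strand was used in counting is not given in the sources used here.

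The Sprouty genes all had negative log2 fold changes, with OZO levels at 28.3% to 50.5% of their OLO levels. Spry2 was at 22.1 CPM in OLO-treated and 8.28 CPM in OZO-treated cells, a log2 fold change of -1.42 ± 0.44 (SE) with an interval from -2.55 to -0.28. Spry1 was at 5.47 and 2.76 CPM, a log2 fold change of -0.99 ± 0.35 (SE) whose interval, -1.89 to -0.08, came close to 0. Spry4, the least read member after Dusp5, was at 4.47 CPM in OLO-treated and 1.26 CPM in OZO-treated cells. Its log2 fold change of -1.82 had an SE of 0.94, at the 95.4th percentile of genes of like expression, and its interval from -4.24 to 0.60 held 0. Spry4 thus shared with Dusp4 a difference of over 3-fold (3.53-fold and 3.75-fold) that the spread of these samples did not allow to be told from 0. Spry1 (chr3:37639947-37644598) overlaps Gm42922 and Spry4 (chr18:38586247-38601415) overlaps the small RNAs Gm27369 and Gm27804, all on the opposite strand. Spry2 lies at chr14:105891947-105896819 and had no such partner.

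The SPRED genes had the smallest errors of the members and modest differences. Spred1, whose product recruits neurofibromin to restrain RAS, was at 108 CPM in OLO-treated and 55.6 CPM in OZO-treated cells, a log2 fold change of -0.96 ± 0.19 (SE, interval -1.46 to -0.47). Spred2, its close relative, was at 28.1 and 16.3 CPM, with a log2 fold change of -0.78 ± 0.18 (SE, interval -1.26 to -0.31). Both intervals lay below 0, and they overlapped each other over most of their length. Spred1 lies at chr2:117121374-117182279 and Spred2 at chr11:19924375-20024026, each with 7 exons.

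Both ETS factors, Etv5 and Etv4, had negative log2 fold changes, and the Etv4 interval held 0. Etv5 was at 14.1 CPM in OLO-treated and 5.10 CPM in OZO-treated cells, a log2 fold change of -1.47 ± 0.36 (SE, interval -2.39 to -0.54). Etv4 was at 3.47 and 2.97 CPM, 85.7% of its OLO level, with a log2 fold change of -0.22 ± 0.37 (SE, interval -1.19 to 0.74). The Etv4 interval overlapped the Etv5 interval, and the difference between the genes was not tested. Etv4 lies at chr11:101769742-101785371 and Etv5 at chr16:22381309-22439719, each with 13 exons.

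**Figure D2:**
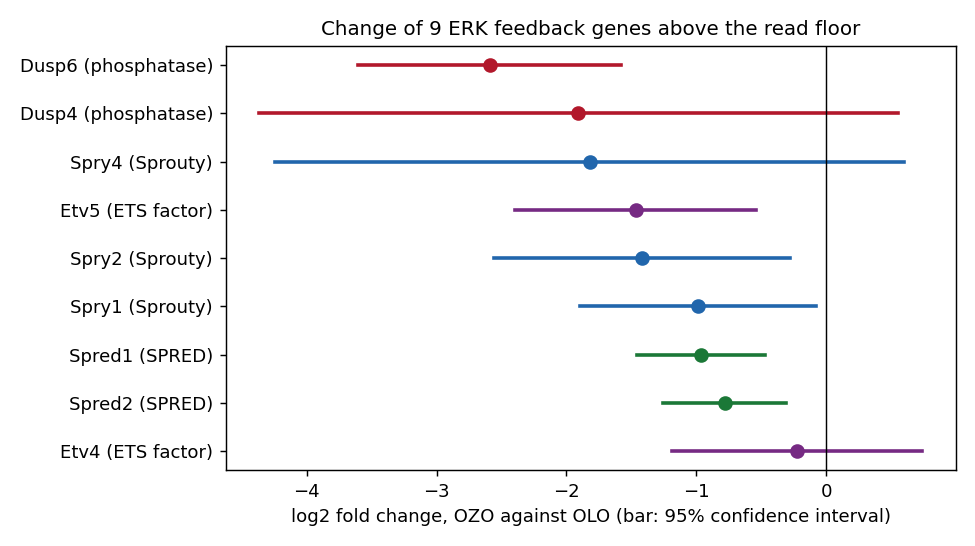
The log2 fold change of OZO against OLO for the 9 feedback genes above the floor of 3 reads (points), with 95% intervals (bars) and colours by family. All 9 points lie below 0, and the bars of Dusp4, Spry4 and Etv4 cross 0.

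The members differed widely in level. Per kilobase of the longest transcript, average CPM was 21.7 for Dusp4 and 12.9 for Spred1, a step smaller than 2 joint errors. Spry2 (6.48 CPM per kb), Dusp6 (5.31) and Spred2 (4.82) formed the next group, in which neighbours did not differ by more than 2 joint errors. Etv5 followed at 2.14 CPM per kb, then Spry1 (1.40) and Etv4 (1.34), which could not be told apart, then Spry4 (0.499) and Dusp5 (0.0322). The error used for this order is 0.5 times the SE of the fold change.

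**Figure D3:**
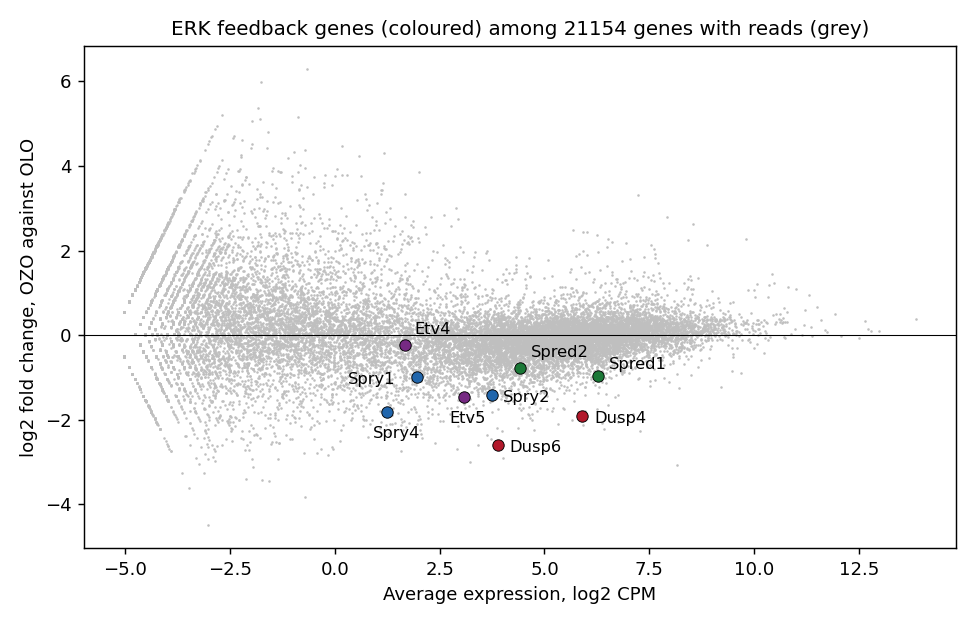
The log2 fold change of OZO against OLO (vertical axis) against average expression in log2 CPM (horizontal axis) for 21154 genes with reads in grey, with 9 feedback genes coloured by family. Dusp6 and Dusp4 lie near the lower edge of the grey cloud at their expression, and Etv4 lies within the grey cloud.

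Messages that turn over quickly often carry AU-rich letters in the 3′ untranslated region. The pentamer ATTTA occurred at least 5 times there in 3 of the 10 members (Spry4 with 7, Spred1 with 12 and Etv5 with 5), against 24.3% of 11182 coding genes of at least 1 CPM. Dusp6, with the largest fold among the 9 genes above the floor, held 1 copy, and Etv4, with the smallest, held 0. Dusp4, Spry1 and Spry2 each held 2 copies, Spred2 held 4 and Dusp5 held 1. What part message turnover had in the values of the members was not tested.

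Other genes of the same families were not all at lower levels, and all values that follow come from the same comparison of the same samples. Of 10 relatives, 2 were lower at an unadjusted p under 0.05, 1 was higher, and the median log2 fold change of the 8 above the floor was 1.02. At that limit 7.08% of all genes were lower and 6.25% higher, or 13.8% and 10.1% of genes of at least 1 CPM. Dusp7, the cytoplasmic relative of Dusp6 that also acts on ERK, was at 22.1 CPM in OLO-treated and 11.4 CPM in OZO-treated cells (log2 fold change -0.95 ± 0.12, SE). Dusp2, a nuclear phosphatase, was at 3.81 CPM in OLO-treated cells and at 39.3% of that level in OZO-treated cells (-1.35 ± 0.35, SE). Dusp16, directed mainly at JNK and p38, was higher instead, at 135 CPM in OLO-treated and 342 CPM in OZO-treated cells (1.34 ± 0.39, SE). Dusp8, also directed at JNK and p38, had a log2 fold change of 1.49 (interval -0.09 to 3.08), and Dusp1, an immediate early phosphatase of all 3 kinases, of 1.47 (interval -0.01 to 2.95). Spred3 (1.64, interval -0.53 to 3.81) and the PEA3 factor Etv1 (-1.30, interval -2.77 to 0.18), both named after their values were seen, did not pass either. Dusp9, at or under the floor, and Spry3, without reads, are likewise named after their values were seen.

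Of 18 genes of the cascade above the feedback genes, from adaptors to kinases, 0 were lower and 4 higher at an unadjusted limma-voom p under 0.05. The shares among genes of at least 1 CPM were 13.8% lower and 10.1% higher. By sign alone 8 of the 18 cascade genes were negative and 10 positive, with a median log2 fold change of 0.05. The 4 that passed were Map2k1, which encodes MEK1 (0.97, interval 0.10 to 1.84), Braf (0.47 ± 0.11, SE), the receptor adaptor Frs2 (0.43 ± 0.12, SE) and Mapk3, which encodes ERK1 (0.31 ± 0.09, SE). The phosphatase Ptpn11, a positive regulator of RAS, had a log2 fold change of 0.10.

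Of 9 other brakes on the pathway, 0 were lower and 1 was higher at an unadjusted limma-voom p under 0.05, while 5 were negative and 4 positive by sign alone. The shares among genes of at least 1 CPM were 13.8% lower and 10.1% higher. The brake that passed was Nf1, which encodes neurofibromin, the partner of SPRED proteins (log2 fold change 0.41 ± 0.13, SE). Pebp1, a RAF inhibitor, had a log2 fold change of 0.26 and Rasa1, a GTPase-activating protein for RAS, of -0.32, and both intervals held 0. The median of the 9 was -0.16.

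Of 12 other transcripts that ERK activity raises, 4 were lower at an unadjusted limma-voom p under 0.05, or 3 without Lif, and 0 were higher. At that limit 7.08% of all genes were lower and 6.25% higher, or 13.8% and 10.1% of genes of at least 1 CPM. The median log2 fold change was -0.35 over all 12 transcripts, and -0.54 over the 11 above the floor. That floor leaves out Fosl1 (named after its values were seen), and Lif passed it only through its OLO level. Ccnd1, which encodes cyclin D1, was at 172 CPM in OLO-treated and 40.5 CPM in OZO-treated cells (-2.09 ± 0.22, SE). The growth regulator Myc was at 58.8 and 12.5 CPM (-2.23 ± 0.82, SE, interval -4.34 to -0.13). The SE of Myc was at the 98.9th percentile of genes of like expression. The chromatin protein gene Hmga2 was at 46.1 and 12.8 CPM (-1.85 ± 0.28, SE). The cytokine gene Lif was at 1.07 CPM in OLO-treated cells and, at 0.141 CPM, under the floor in OZO-treated cells. The rest of this list did not pass. Phlda1 had a log2 fold change of -0.85 (interval -2.45 to 0.76) and the stress-inducible Ier3 of 1.06 (interval -1.64 to 3.76). The immediate early genes Egr1 (1.21) and Fos (-0.06), named after their values were seen, had intervals that held 0. This list, too, was written with earlier results of these data known.

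Genes that control ETV4 and ETV5 at the promoter or as proteins were lower at 0 and higher at 0 of 6 at an unadjusted limma-voom p under 0.05, with a median log2 fold change of -0.09. The shares among genes of at least 1 CPM were 13.8% lower and 10.1% higher. Dcaf7 was at -0.15 and Atxn1l, a Capicua partner, at -0.20. Cic, which encodes Capicua and was named after its values were seen, was at -0.02 with an interval from -0.58 to 0.53.

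**Figure D4:**
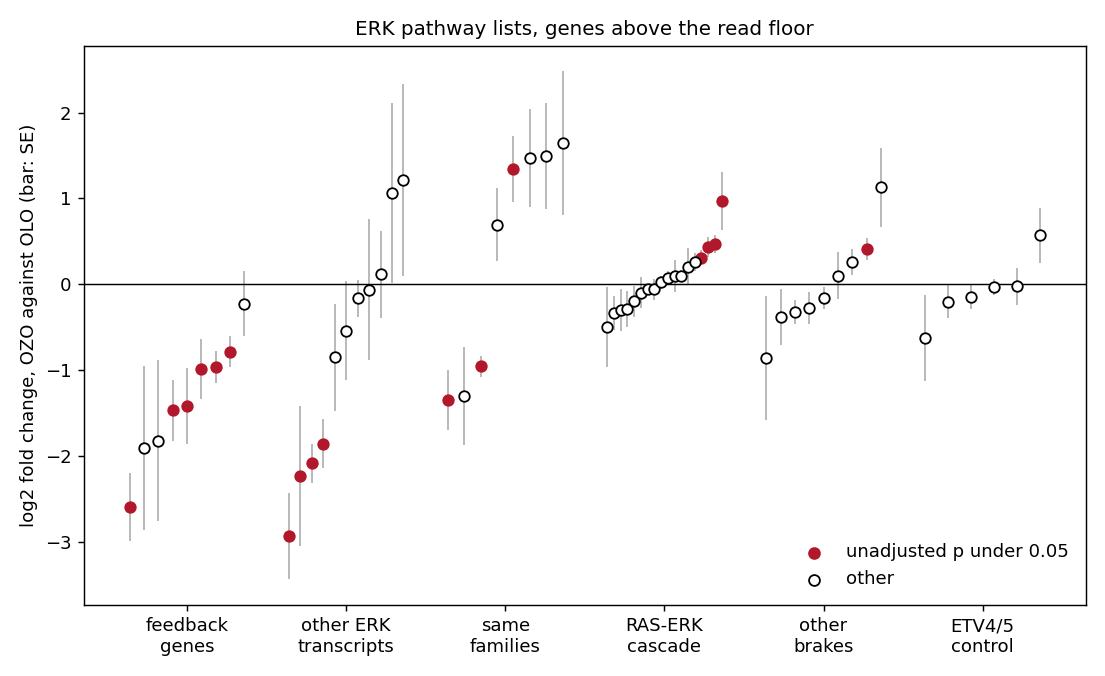
The log2 fold change of OZO against OLO (vertical axis) for genes above the floor in each of 6 ERK pathway lists, sorted within each list, with the SE as bars and filled points for an unadjusted p under 0.05. All 9 feedback genes lie below 0, the cascade genes lie around 0, and relatives of the feedback genes lie on both sides of it.

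Some regulators outside the feedback genes also had negative log2 fold changes in this line. Mitf, the master transcription factor of pigment cells, was at 835 CPM in OLO-treated and 99.3 CPM in OZO-treated cells (log2 fold change -3.07 ± 0.79, SE, interval -5.12 to -1.03). Sox10, a lineage factor upstream of it, had a log2 fold change of -2.05 ± 0.69 (SE, interval -3.83 to -0.28). The SE of Mitf was at the 99.4th and that of Sox10 at the 99.2nd percentile of genes of like expression. Of the 7 pigment cell genes, 3 were lower and 1 was higher at an unadjusted p under 0.05, beside 13.8% lower and 10.1% higher among genes of at least 1 CPM. Tyr was at -0.37 and Pmel at 0.36, while Tyrp1, Dct and Mlana lay between -0.07 and 0.10. What part these lineage factors have in the values of the feedback genes was not tested.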

How the data were processed

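RNA of B16F10 cells (3 OLO, 3 OZO samples) was prepared with a directional library kit. Per the labels, the authors used HISAT2 2.1.0 and mm10, featureCounts 2.1.1 and limma 3.58.1, and the strand setting is not given in the sources used here. The deposited table holds the authors' own limma-voom comparison: log2 fold changes and average log2 expression, the moderated statistic, a score for each gene, with p-values unadjusted and Benjamini-Hochberg adjusted. These columns were used as a description, and no model was fitted again. The table's own name gives the sign as treated minus control, taken as OZO minus OLO. Single-library values were not analysed here, and 0 columns of single samples were left out.

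Dividing the log2 fold change by its statistic gave the SE, and 95% intervals used the degrees of freedom solved from statistic and p-value (4.93). Group levels were average log2 expression plus or minus 0.5 times the log2 fold change, an approximation because the fold change is weighted. Genes without reads (6025) gave a geometric mean library size of 19641945 reads, so 1 CPM stood for 19.6 reads. The depth of each library is unknown. The floor was 3 reads per library in the group mean.

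The members and all lists were chosen with earlier results of these data known. Named genes were all members, list genes with an unadjusted p-value under 0.05 and the 2 best expressed others of each list. Of these, 1 gene is not reported here. The cell type markers are named as a whole list, which goes beyond this rule, and other pathway genes outside it are marked as named after their values were seen. GENCODE M21 on GRCm38 gave the positions, and 23882 of 24126 Ensembl identifiers matched. Alternatives subtracted the median of all genes with reads, or of 25 classes of expression or 50 classes of length or GC content, and changed fold and expression limits. The calculations were checked on simulated counts. The software was R 4.3.3 and Python 3.11.15 with matplotlib 3.10.9, pandas 2.3.3, scipy 1.17.1 and numpy 2.4.6.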

Additional observations from a re-analysis of the deposited data

How the results depend on the processing

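No paired analysis was possible because single-library values were not analysed here. For the same reason no replicate was left out and neither DESeq2 nor another pseudocount was run. Of 36 results for the 9 members above the floor under 4 ways of centring the fold changes, 36 stayed within the SE and 0 reversed. The largest shifts on the log2 scale were 0.02 after subtracting the median of genes with reads, 0.23 by expression class, 0.12 by length class and 0.14 by GC class. The median of the members was -1.20 with Dusp5 kept in, an alternative added after the values were seen. The count of lower members, 6 without a fold limit and 6 at 1.5-fold, was 3 at 2-fold. The share of lower genes, 7.08% of all genes, was 13.8% among genes of at least 1 CPM and 2.55% at 2-fold. The share of higher genes, 6.25%, was 10.1% among genes of at least 1 CPM, 3.68% at 1.5-fold and 2.49% at 2-fold. These changes follow from which genes are counted. Limited to genes of at least 1 CPM, the count of lower ERK transcripts outside the members was 3 in place of 4, without Lif.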
